A study of Mus musculus with 6 samples.

Results

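*Calcr*, *Cd34*, *Vcam1*, *Chodl*, *Chrdl2*, *Gas1* and *Ncam1* encode surface and secreted proteins by which the quiescent stem cells of muscle, the satellite cells, are recognised or held in place. These 7 genes were taken by symbol from the 54115 genes to which a sequenced transcript could be assigned. Their RNA was measured in satellite cells sorted directly from uninjured hindlimb muscle of C57BL/6J mice that were wild type for *Pax7* (*Pax7WT*, n = 3) or homozygous for a *Pax7* allele with arginine in place of a lysine that is acetylated in the protein (*Pax7KR*, n = 3). The allele was made by Cas9 editing of zygotes and lies in the germline, so that every cell of the *Pax7KR* mice carries it and not the satellite cells alone, and the mice were 6 to 8 weeks old. The gate kept cells positive for α7-INTEGRIN and CD34 and negative for CD31, CD11b, SCA-1 and CD45, so *Cd34* codes for a protein used to collect the cells, whereas the other members were not sorted on. The controls were wild-type littermates from crosses of heterozygous mice. The labels do not say how many mice gave a sample, and the p-values measure the spread between these 3 samples per genotype.

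Satellite cells lie between the myofibre and its basal lamina and stay out of the cell cycle until the muscle is injured. Quiescence is kept by signals received at the cell surface. The calcitonin receptor CALCR, a receptor coupled to the stimulatory G protein, is bound in this niche by collagen V made by the satellite cells themselves and acts through protein kinase A to restrain the Hippo pathway effector YAP1. VCAM1 and NCAM1 are adhesion molecules of the immunoglobulin superfamily, CD34 is a sialomucin, GAS1 is a lipid-anchored co-receptor of Hedgehog ligands, CHODL is a membrane protein with a C-type lectin domain, and CHRDL2 is a secreted protein of the chordin family that binds bone morphogenetic proteins (BMPs). PAX7 is the paired-box and homeodomain transcription factor that marks satellite cells.

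The libraries held 17822367 to 27908054 estimated reads, of which 17.4% to 19.6% fell on the top 50 genes. *Pax7* itself was at 1666, 1506 and 1480 CPM (reads per 1e+06 reads of the library) in *Pax7WT* and 1410, 1460 and 1637 CPM in *Pax7KR* cells, and the allele exchanges a residue without removing the transcript, so this level does not check the labels. The satellite cell markers *Pax7*, *Myf5*, *Cdh15*, *Itga7*, *Sdc4* and *Des* summed to between 3681 and 4034 CPM in every library. Of the genes behind the negative gate, *Ptprc* (CD45) stayed between 0.0946 and 1.27 CPM, *Itgam* (CD11b) between 0.452 and 1.29 CPM, *Ly6a* (SCA-1) between 5.53 and 9.41 CPM and *Pecam1* (CD31) between 20.7 and 50.4 CPM. *Pax7KR* replicate 2 stood apart from the other libraries in its Y-linked genes. *Ddx3y*, *Eif2s3y*, *Kdm5d* and *Uty* summed to 131 CPM there, against 299 to 355 CPM in the other 5 libraries, while *Xist* was at 2.29 CPM or less in all 6. These genes were looked at after their values were seen, the sex of the mice is not given in the labels, and the genotype difference of each member is given below with and without that library.

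The first question was how strongly each gene was expressed. Levels between genes were compared in the deposited TPM units, which allow for transcript length, summed over the transcripts of a gene. *Chodl* was at 1641, 1519 and 1678 TPM in *Pax7WT* and 1929, 1979 and 1599 TPM in *Pax7KR* cells, rank 93 of the 17152 genes tested. *Gas1* followed with 977, 900.3 and 1191 TPM against 989, 811 and 1083 TPM, at rank 137. These 2 genes stood clear of each other and of the remaining members in all 6 libraries.

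*Chrdl2* ranged from 437 to 580.4 TPM and *Cd34* from 396 to 480.1 TPM, and these neighbours overlapped. *Vcam1*, at 285 to 349 TPM, lay below both and overlapped neither. *Ncam1*, at 146 to 155 TPM, and *Calcr*, at 120 to 150 TPM, formed the lower end and overlapped each other. *Calcr* was nevertheless at rank 898 of 17152, so that all 7 members were within the upper 5.24% of the genes tested. The order of the means was the same for all 7 when reads per kilobase were scaled with normalized library sizes.

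**Figure D1:**
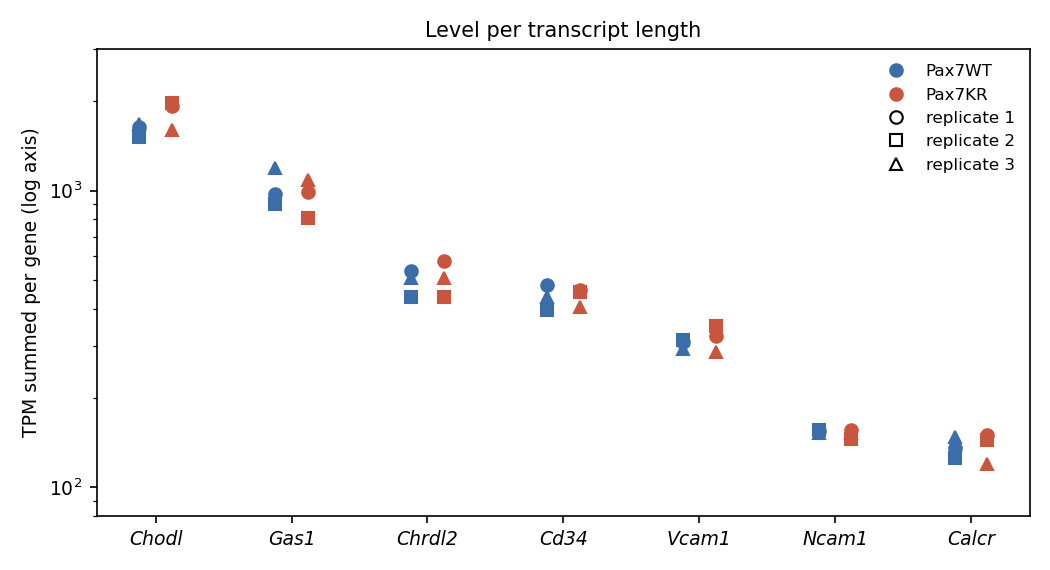
Level of the 7 genes in TPM (log axis) in each of the 6 libraries, 3 *Pax7WT* in blue and 3 *Pax7KR* in red, with the shape giving the replicate number. Genes are ordered by their mean over all libraries, from *Chodl* (mean 1724 TPM) to *Calcr* (mean 137 TPM).

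The second question was whether the exchange of the lysine altered these levels. None of the 7 genes differed between the genotypes in edgeR's quasi-likelihood test at an adjusted p of 0.1. Their adjusted p-values were 0.992 or 0.998, and 0 of 7 had an unadjusted p under 0.05. In the same fit 0 of 17152 genes (0.0%) passed the adjusted cut-off, and the smallest adjusted p was 0.302, while 803 genes (4.68%) had an unadjusted p under 0.05, 387 of them higher (2.26%) and 416 lower (2.43%) in *Pax7KR* cells. DESeq2 called 30 genes (0.175%) at the same cut-off, or 45 (0.262%) with transcript lengths taken into account. Without the filter edgeR called 157 of 24068 genes (0.652%), and with the replicate number as a block 13 genes (0.0758%). None of the 7 was among any of these. In bulk samples such as these, fewer cells expressing a gene and less of its RNA per cell cannot be told apart.

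Among the adhesion molecules, *Ncam1* was the one member whose groups were separate. It was at 422, 444 and 435 CPM in *Pax7WT* and at 409, 390.1 and 419 CPM in *Pax7KR* cells. Each *Pax7KR* library lay below each *Pax7WT* library, which was the case for 5.19% of all genes tested, or 10.3% when both directions are counted. The means were 434 ± 11.0 and 406 ± 14.6 CPM (SD, n = 3). The log2 fold change between them was -0.10 (SE 0.06, 95% interval -0.23 to 0.03, edgeR adjusted p = 0.992). Without *Pax7KR* replicate 2 the groups remained separate and the log2 fold change was -0.07.

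*Vcam1* was at 638, 644 and 600.3 CPM in *Pax7WT* and at 626, 674 and 573 CPM in *Pax7KR* cells. Both the highest and the lowest library were of the *Pax7KR* genotype, and the groups overlapped. The means were 628 ± 23.8 and 625 ± 50.5 CPM, a log2 fold change of -0.01 (SE 0.07, 95% interval -0.16 to 0.15, edgeR adjusted p = 0.998). The interval corresponds to a fold between 0.894 and 1.11. Without *Pax7KR* replicate 2, the highest library, the log2 fold change was -0.07.

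*Cd34*, the sialomucin of the gate, was at 698, 582 and 633 CPM in *Pax7WT* and at 632, 628 and 576 CPM in *Pax7KR* cells. All 3 *Pax7KR* values lay below the 2 highest *Pax7WT* libraries, and the remaining *Pax7WT* library lay among them. The means were 638 ± 58.2 and 612 ± 31.1 CPM, with a log2 fold change of -0.06 (SE 0.08, 95% interval -0.22 to 0.10, edgeR adjusted p = 0.998) and of -0.08 without *Pax7KR* replicate 2. Since cells were collected by CD34 protein, a difference in the share of CD34-positive cells could not appear here.

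For the receptor gene *Calcr*, the 3 *Pax7WT* libraries were at 282, 247 and 298 CPM and the 3 *Pax7KR* libraries at 285, 278 and 244 CPM. The 2 sets covered nearly the same span. The means were 276 ± 25.9 and 269 ± 22.1 CPM, and the log2 fold change was -0.04 (SE 0.08, 95% interval -0.21 to 0.14, edgeR adjusted p = 0.998), or -0.06 without *Pax7KR* replicate 2.

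*Gas1* varied most between libraries of one genotype. It was at 1332, 1262 and 1663 CPM in *Pax7WT* and at 1309, 1083 and 1481 CPM in *Pax7KR* cells, with coefficients of variation of 15.1% and 15.5%. The highest library was *Pax7WT* replicate 3 and the lowest *Pax7KR* replicate 2, with the others interleaved. The log2 fold change was -0.14 (SE 0.14, 95% interval -0.46 to 0.19, edgeR adjusted p = 0.998). It was -0.02 without *Pax7KR* replicate 2 and -0.01 without *Pax7WT* replicate 3, the 2 libraries at the ends of the range. The interval still holds a fold as low as 0.727, the lowest bound of the 7 genes.

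*Chodl* was the one member with a higher mean CPM in *Pax7KR* cells. Its libraries were at 2176, 1989 and 2266 CPM in *Pax7WT* and at 2392, 2478 and 2079.7 CPM in *Pax7KR* cells. The 2 highest values were *Pax7KR* libraries, but the third lay below 2 of the *Pax7WT* libraries. The means were 2144 ± 141 and 2317 ± 210 CPM, a log2 fold change of 0.11 (SE 0.08, 95% interval -0.07 to 0.30, edgeR adjusted p = 0.992), which was 0.06 without *Pax7KR* replicate 2. The interval reaches up to a fold of 1.23.

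The secreted member *Chrdl2* was at 459, 384 and 441 CPM in *Pax7WT* and at 470, 363 and 426 CPM in *Pax7KR* cells. Both the highest and the lowest library were *Pax7KR*. The means were 428 ± 39.0 and 419 ± 53.7 CPM, with a log2 fold change of -0.03 (SE 0.10, 95% interval -0.25 to 0.19, edgeR adjusted p = 0.998) that became 0.07 without *Pax7KR* replicate 2.

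**Figure D2:**
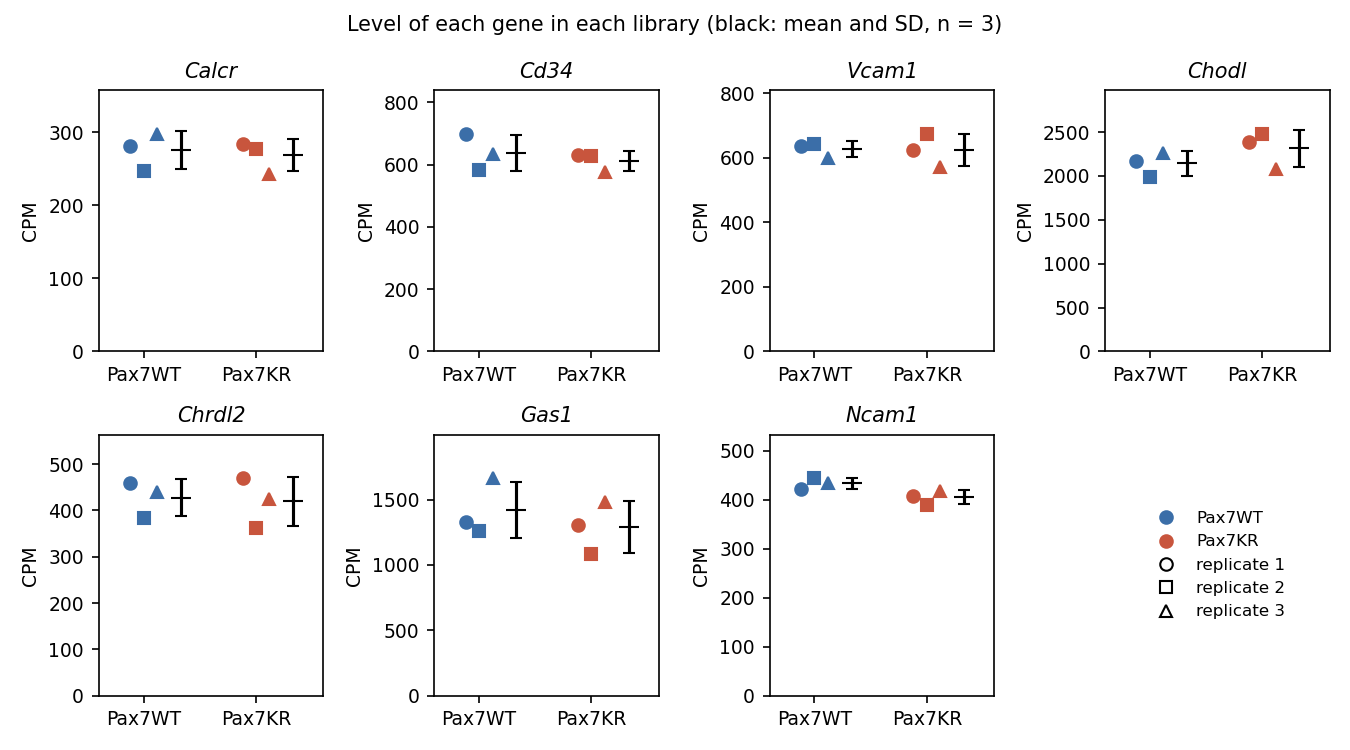
Normalized level (CPM, axes from 0) of each gene in each library by genotype, with the mean and SD of 3 libraries in black. The groups overlap for all genes but *Ncam1*, whose *Pax7KR* libraries (390.1 to 419 CPM) lie below its *Pax7WT* libraries (422 to 444 CPM).

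In all, 6 of the 7 genes had a lower mean level in *Pax7KR* cells in this fit, while 51.0% of all genes tested did. In edgeR with transcript length taken into account, on normalized library sizes, 5 of the 7 were lower. The deposited TPM are not scaled to normalized library sizes, and in them only *Gas1* and *Ncam1* had a lower mean in *Pax7KR* cells. The TPM means in *Pax7WT* and *Pax7KR* cells were 1613 and 1836 for *Chodl*, 494 and 508 for *Chrdl2* and 438 and 441 for *Cd34*. They were 304 and 319 for *Vcam1* and 136 and 138 for *Calcr*. The median log2 fold change of the 7 was -0.04, and that of all genes was -0.0037. Leaving out *Pax7WT* replicate 1 turned *Cd34*, *Vcam1* and *Chrdl2* to the other side of 0, so that 3 of 7 remained lower. The directions of 3 members, *Chodl*, *Gas1* and *Ncam1*, were the same in each of the 13 other fits, and those of the other 4 were not. The 7 genes summed to 6007, 5554 and 6336 CPM in *Pax7WT* and 6122, 5894 and 5799 CPM in *Pax7KR* cells. In CPM the *Pax7KR* sums lay within the span of the *Pax7WT* sums. In TPM the sums were 4230, 3845 and 4407.5 against 4587, 4322 and 4150, with *Pax7KR* replicate 1 above all *Pax7WT* libraries. The numbers of estimated reads behind these values, from 4381 for *Calcr* in *Pax7WT* replicate 2 to 59196 for *Chodl* in *Pax7WT* replicate 1, carry a counting error that is part of the spread between samples and so of these intervals.

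**Figure D3:**
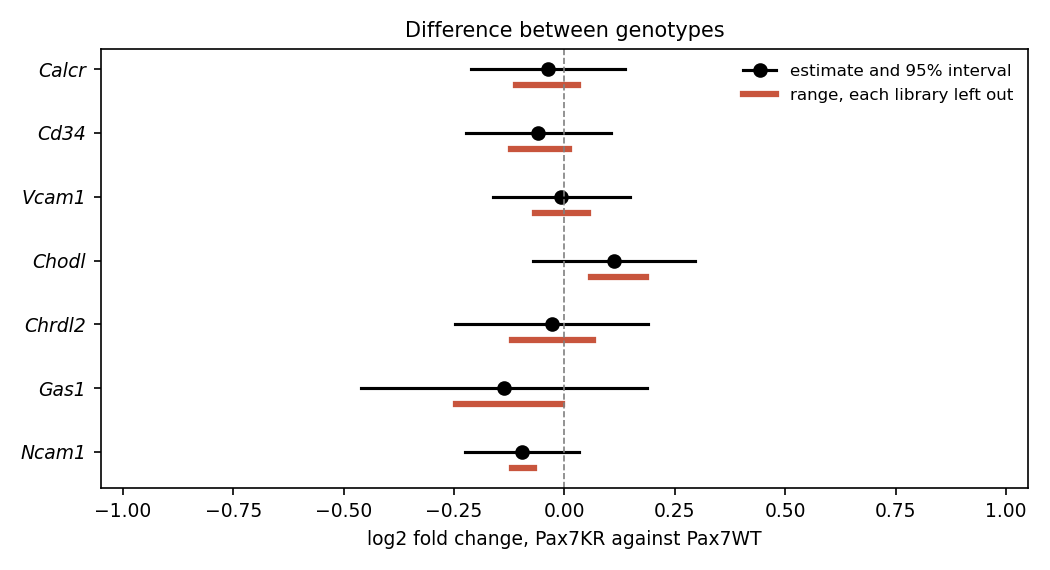
Log2 fold change of *Pax7KR* against *Pax7WT* for each gene (black point) with its 95% interval (black line), and below it the range of the estimate when each library is left out in turn (red). All 7 intervals include 0, and the red range is wholly on one side of 0 for *Chodl*, *Gas1* and *Ncam1*.

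The levels of the members were also compared with each other from library to library. Over the 6 libraries, the strongest of the 21 relations between 2 members was that of *Vcam1* and *Gas1*, with a Pearson r of -0.86 (exact permutation p = 0.0333, adjusted over 21 pairs 0.564) and a Spearman rho of -0.89 (exact permutation p = 0.0333, adjusted 0.613). It was -0.94 without the 2 libraries farthest from the median of *Vcam1* and -0.94 within genotypes. *Chodl* and *Ncam1* had an r of -0.81 (exact permutation p = 0.0556, adjusted 0.564; rho -0.77, p = 0.103), -0.78 within genotypes and -0.28 without the 2 farthest libraries. *Calcr* and *Cd34* had an r of 0.76 (exact permutation p = 0.0806, adjusted 0.564; rho 0.83, p = 0.0583), 0.75 within genotypes and -0.22 without the 2 farthest libraries. *Calcr* and *Chodl* had an r of 0.72 (exact permutation p = 0.114, adjusted 0.598; rho 0.54, p = 0.297), 0.94 within genotypes and -0.40 without the 2 farthest libraries. The 2 libraries left out were those farthest from the median of the gene named first in a pair. Leaving them out narrows the range of that gene, so an r without them does not decide whether 2 genes vary together. No pair passed the adjustment, and 6 libraries leave relations between members undecided.

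Among 9520 other genes with a mean of 10 CPM or more, the genes whose log2 levels ran most nearly parallel to each member over the 6 libraries were named by their Pearson r, as a description. For *Calcr* these were *Ccn2* (0.982) and *Fam49b* (0.980), for *Cd34* *Tmx3* (0.992) and *1700025G04Rik* (0.991), and for *Vcam1* *Patj* (0.992) and *Adh1* (0.981). For *Chodl* they were *Tle1* (0.992) and *Smc6* (0.985), for *Chrdl2* *Sbf2* (0.996) and *Gtf2b* (0.994), for *Gas1* *Cox7b* (0.986) and *Ddhd2* (0.984), and for *Ncam1* *Taf4b* (0.989) and *mt-Nd1* (0.984). No member was among the genes closest to another member. With 6 points, the best of so many genes lies close to 1 for any gene.

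Each of these genes except *Gas1* gives rise to several transcripts, and the estimated reads were therefore also divided by transcript. A transcript was compared between genotypes where it held 5% or more of the reads of its gene, which applied to 12 of the 32 transcripts of the 7 genes, *Gas1* being left out because all of its reads were on 1 transcript. None of the 12 had separate groups, and the exact permutation p-values (two-sided) ran from 0.3 to 1.0, with 0.1 the smallest that 3 against 3 libraries allow. The shares are estimates of the read assignment and not counts of unique reads. They are not divided by length, so that a long transcript weighs more than a short one. Gene and transcript positions are those of GENCODE on build GRCm38.

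*Calcr* (ENSMUSG00000023964, chr6:3685680-3764714, minus strand) has 3 annotated first exons and was read mainly from the middle one. The transcript that begins there held 97.6%, 90.8% and 93.4% of the reads of the gene in *Pax7WT* and 94.4%, 95.6% and 98.5% in *Pax7KR* libraries. The genotypes interleaved (means 93.9% ± 3.45 and 96.2% ± 2.11, n = 3, exact permutation p = 0.4). The 2 transcripts that begin at the upstream first exon held 0.669% of the reads together, 244 in all libraries, and reached at most 0.929% in one library. The 2 transcripts annotated from the third and most downstream first exon, where the coding region begins, held 3.31% and 0.748%, the first of them from 0% to 8.41% in one library. The 250 bases before the middle and the upstream start, from the RefSeq promoters of GRCm38.p6 and on the minus strand, are shown because most reads came from the transcript of the middle start. No promoter of the third start is shown. Capitals mark ATTA and its reverse complement TAAT, the core bound by homeodomains, and GTCAC and its reverse complement GTGAC, the core bound by paired domains.
*Calcr* middle start, chr6:3763624-3763873: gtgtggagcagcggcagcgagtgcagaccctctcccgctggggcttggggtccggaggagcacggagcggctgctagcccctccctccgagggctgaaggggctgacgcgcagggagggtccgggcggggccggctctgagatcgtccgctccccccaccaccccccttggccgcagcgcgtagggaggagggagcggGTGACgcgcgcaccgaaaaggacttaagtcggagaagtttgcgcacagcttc
*Calcr* upstream start, chr6:3764714-3764963: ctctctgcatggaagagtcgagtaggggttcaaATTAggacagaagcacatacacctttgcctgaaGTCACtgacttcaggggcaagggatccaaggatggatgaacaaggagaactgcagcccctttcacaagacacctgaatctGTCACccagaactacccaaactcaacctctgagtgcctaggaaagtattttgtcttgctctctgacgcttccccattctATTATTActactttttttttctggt
Positions are counted back from the start. The promoter of the middle start holds no ATTA and 1 GTCAC, at -52, whereas that of the upstream start holds 3 ATTA, at -217, -25 and -22, the last 2 of them overlapping in 1 run, and 2 GTCAC, at -184 and -104. Of 32851 promoters of this length, 54.9% hold ATTA and 39.8% hold GTCAC on either strand. A TAAT followed by an ATTA after 2 or 3 further bases, the paired homeodomain core, occurs in 0.384% and 0.463% of them and in neither of these promoters of *Calcr*. Promoters were found for *Cd34*, *Chodl* and *Gas1* as well, of which *Cd34* holds 1 GTCAC and no ATTA, *Chodl* 2 ATTA and 1 GTCAC, and *Gas1* neither. These are matches of letters and not measured binding sites.

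The forms of *Calcr* also differ by an exon that lengthens the receptor from 496 to 533 residues. It lies in the coding region and is shown in capitals, with 12 bases of the exon on each side in lower case, because it tells the 2 forms of the receptor apart.
*Calcr* exon of the long form, chr6:3707489-3707599: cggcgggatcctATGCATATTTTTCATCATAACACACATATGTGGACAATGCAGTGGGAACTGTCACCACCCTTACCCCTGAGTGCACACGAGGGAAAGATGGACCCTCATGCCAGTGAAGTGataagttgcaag
Transcripts with this exon held 1.24% of the reads of *Calcr*, 453 in all, and between 0.592% and 2.78% in one library. The short form led in every library of both genotypes.

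*Cd34* (ENSMUSG00000016494, chr1:194938819-194961279, plus strand) is made as a full-length protein of 382 residues and as one of 325 residues with a short cytoplasmic tail, and the balance of these forms is known to shift when satellite cells are activated. The full-length form held 81.6%, 79.6% and 80.1% of the reads in *Pax7WT* and 82.5%, 79.8% and 83.4% in *Pax7KR* libraries. The short form held a mean of 19.2% ± 1.03 in *Pax7WT* and 17.6% ± 1.95 in *Pax7KR* libraries (n = 3). The difference in the mean share of the short form, -1.58 percentage points, was within the spread (exact permutation p = 0.3). The short form ends through an exon that brings an early stop codon, here in capitals after the last 12 shared bases.
*Cd34* short form tail, chr1:194959780-194959794: ggagaaaggctgGAGCTGGAACCTTGA

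*Chodl* (ENSMUSG00000022860, chr16:78930948-78951733, plus strand) was read mainly as the transcript for a protein of 273 residues, with 75.3% to 80.4% of its reads, and next as one for 292 residues, with 14.3% to 17.6%. The mean share of the second was 15.8% ± 1.57 in *Pax7WT* and 16.5% ± 1.47 in *Pax7KR* cells (exact permutation p = 0.6). The 2 proteins share their lectin domain and part at the same place into different C-terminal ends. Both ends up to the stop codon are in capitals, after the last 12 shared bases.
*Chodl* tail of the leading form, chr16:78950357-78950441: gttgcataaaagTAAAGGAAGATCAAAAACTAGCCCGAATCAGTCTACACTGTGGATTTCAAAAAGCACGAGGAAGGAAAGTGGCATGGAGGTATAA
*Chodl* tail of the second form, chr16:78949012-78949153: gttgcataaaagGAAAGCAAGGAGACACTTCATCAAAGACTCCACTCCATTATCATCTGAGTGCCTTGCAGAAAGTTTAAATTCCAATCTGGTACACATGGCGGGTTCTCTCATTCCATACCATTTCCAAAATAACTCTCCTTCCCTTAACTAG
A transcript with a retained intron held a further 2.51% to 4.39%.

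*Vcam1* (ENSMUSG00000027962, chr3:116109949-116129688, minus strand) was read to 94.0% to 95.4% as the transcript that codes for the protein of 739 residues. A short form of 345 residues held 2.97%, 2.56% and 2.93% in *Pax7WT* and 2.64%, 2.37% and 2.81% in *Pax7KR* libraries, which overlapped. Its own end replaces the later immunoglobulin domains, the membrane span and the cytoplasmic end, and is in capitals up to the stop codon.
*Vcam1* short form tail, chr3:116123684-116123793: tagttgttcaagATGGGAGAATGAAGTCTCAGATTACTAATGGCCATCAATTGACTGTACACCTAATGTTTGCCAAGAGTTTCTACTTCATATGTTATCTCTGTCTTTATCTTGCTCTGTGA

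*Ncam1* (ENSMUSG00000039542, chr9:49502136-49798925, minus strand) has forms that cross the membrane and forms that are tied to it by a lipid anchor or are secreted. The 2 leading transmembrane transcripts, which differ by 3 coding bases, held 80.2% to 85.2% of the reads together. The transcript for 725 residues, which ends before the membrane exons, held 12.5%, 11.2% and 9.28% in *Pax7WT* and 11.8%, 11.7% and 10.9% in *Pax7KR* libraries (exact permutation p = 0.8). It has 2567 bases, against 6050 for the leading transcript. By TPM, which allow for length, it held 17.5% to 22.6% and the leading transcript 50.1% to 55.0%. One further transcript held 3.35% to 4.75% of the reads, and holds 3 optional exons. They are the exon of 30 bases known as VASE, and exons of 15 and 3 bases that belong to the muscle-specific insert. They are shown in capitals between the bases of the neighbouring exons.
*Ncam1* exon of 30 bases, chr9:49550540-49550569: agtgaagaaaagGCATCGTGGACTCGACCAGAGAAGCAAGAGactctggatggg
*Ncam1* exons of 15 and 3 bases, from chr9:49531974-49541902: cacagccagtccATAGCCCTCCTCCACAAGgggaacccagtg
The same transcript also holds a further inner exon of 801 bases and lacks the beginning of the coding region in the annotation, so its share covers several differences at once.

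*Chrdl2* (ENSMUSG00000030732, chr7:100006172-100034728, plus strand) was read to 82.3% to 85.5% as one transcript for 426 residues. A transcript that starts from another first exon held 5.99% to 7.69%, and one with a retained intron 7.34% to 9.17%. A minor and incomplete transcript held 0.313%, 0.508% and 0.392% in *Pax7WT* and 0.659%, 0.863% and 0.823% in *Pax7KR* libraries. Its groups were separate, but it was under the 5% set for a comparison and is given without a test, as it was picked out after its values were seen. *Gas1* (ENSMUSG00000052957, chr13:60174405-60177365, minus strand) has a single exon, and all of its reads were on the same transcript.

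**Figure D4:**
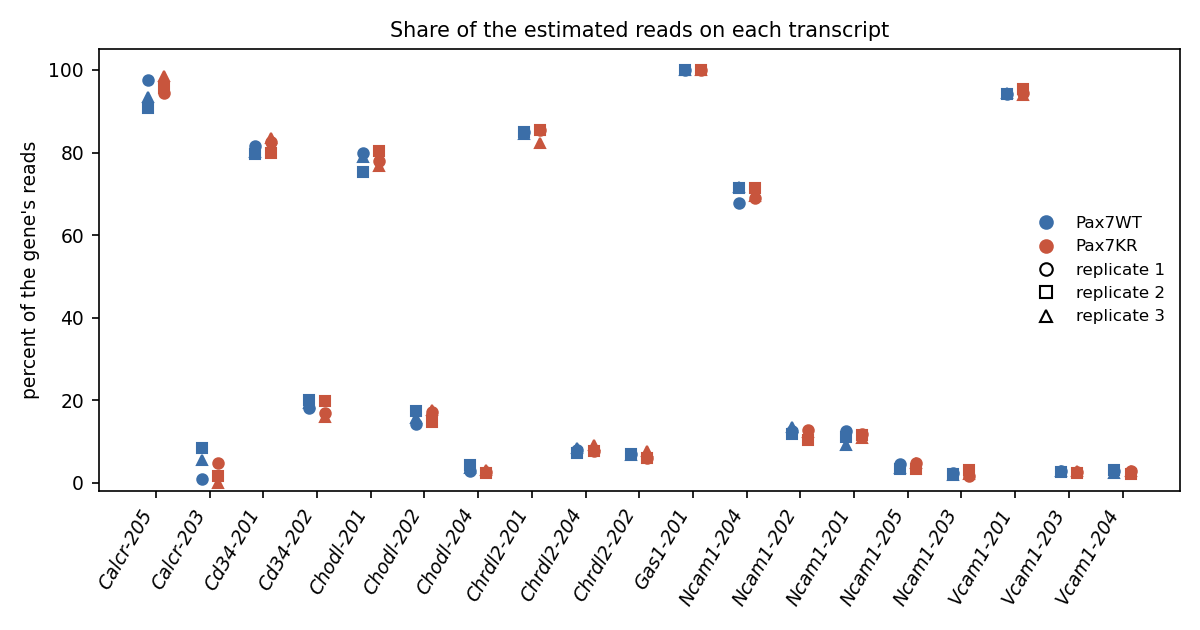
Share of the estimated reads of its gene held by each transcript with 2% or more, in each library, 3 *Pax7WT* in blue and 3 *Pax7KR* in red, by GENCODE transcript name and in the order of the shares within a gene. The leading transcript of a gene holds between 67.8% (*Ncam1*) and 100% (*Gas1*) of the reads, and the genotypes overlap for each of the 12 transcripts compared.

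Sequences shared with other genes were counted in the annotated transcripts of each member, and reads on overlapping genes in the libraries. Of the 31-base sequences in the transcripts of a member, from 0.0% (*Calcr*, *Gas1*) to 2.68% (*Cd34*) also occur in transcripts of other genes. Antisense or overlapping genes, of which *Gm48488* beside *Gas1* had most reads, held at most 0.112% as many reads as the member, and the libraries were made with a kit that keeps the strand.

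The third question was how the ligands, partners and targets of the members were expressed. For the 6 lists of such genes, 65 of 71 genes passed the filter on low counts, 28 with a higher and 37 with a lower mean level in *Pax7KR* cells, and a median log2 fold change of -0.01. None passed the adjusted cut-off. The groups were separate with *Pax7KR* below *Pax7WT* for 4 of the 65 and above for 1. Over all genes tested the shares were 5.19% and 5.14%, or 10.3% for both directions.

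Of the calcitonin receptor genes, 15 of 17 were tested, 7 higher and 8 lower, with a median of -0.01. *Gnas*, which codes for the stimulatory G protein, was at 5921, 5558 and 5472 CPM in *Pax7WT* and at 5366, 5261 and 5095 CPM in *Pax7KR* cells. Its groups were separate, as in 5.19% of all genes with *Pax7KR* below *Pax7WT*. The log2 fold change was -0.11 (SE 0.08, edgeR adjusted p = 0.992). *Col5a2*, a chain of the collagen V ligand, had a log2 fold change of -0.15 (SE 0.07, unadjusted p = 0.0542), and *Yap1*, the effector restrained by the receptor, one of 0.07 (SE 0.06, unadjusted p = 0.297). Of the other collagen V chains, picked out after their values were seen, *Col5a1* and *Col5a3* had log2 fold changes of -0.06 and 0.00. Of the calcitonin family ligands, *Calcb* had no read in any library, while *Calca* was read in every library, at 1.21 to 2.06 CPM.

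Of the relatives and partners of CD34, all 4 were tested, 2 higher and 2 lower (median 0.03). The sialomucins *Podxl* and *Podxl2* had log2 fold changes of 0.19 (SE 0.19) and 0.08 (SE 0.10). Of the VCAM1 partners, 6 of 6 were tested, 1 higher and 5 lower (median -0.10). *Msn*, which codes for moesin, a linker of VCAM1 to actin, was at 324, 319 and 322 CPM in *Pax7WT* and at 314, 302 and 281 CPM in *Pax7KR* cells. The groups were separate, again as in 5.19% of all genes (log2 fold change -0.10, SE 0.06, edgeR adjusted p = 0.992). *Ezr*, for the related ezrin, had a log2 fold change of -0.10 (SE 0.10), and the integrin subunit gene *Itgb7* was at 0.919 CPM or less.

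Of the BMP genes, 20 of 21 were tested, 10 higher and 10 lower, with a median of -0.0024. *Chrd*, the prototype of the chordin family, had a log2 fold change of 0.16 (SE 0.12), the ligand *Bmp2* one of -0.20 (SE 0.21), and *Id1*, a target of BMP signals, one of -0.32 (SE 0.20, unadjusted p = 0.174). *Id1* was at 150.4, 89.7 and 135 CPM in *Pax7WT* and at 97.2, 98.0 and 106 CPM in *Pax7KR* cells, so that *Pax7WT* replicate 2 lay below all *Pax7KR* libraries.

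Of the Hedgehog and GDNF genes, 15 of 16 were tested, 5 higher and 10 lower (median -0.02). The ligand *Gdnf* had a log2 fold change of -0.38 (SE 0.19, unadjusted p = 0.0661) and *Boc*, a Hedgehog co-receptor like GAS1, one of -0.15 (SE 0.08, unadjusted p = 0.0752). Of the Hedgehog ligands, *Shh* had no read in any library, *Ihh* was at 0.395 CPM or less and *Dhh* at 1.35 to 2.78 CPM.

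Of the NCAM1 partners, 6 of 8 were tested, 3 higher and 3 lower (median 0.05). *Fgfr1*, for a growth factor receptor that NCAM1 binds, was at 1493, 1433 and 1532 CPM in *Pax7WT* and at 1594, 1585 and 1647 CPM in *Pax7KR* cells, and its groups were separate, as in 5.14% of all genes with *Pax7KR* above *Pax7WT*. The log2 fold change was 0.11 (SE 0.07, edgeR adjusted p = 0.992). The genes of the enzymes that add polysialic acid to NCAM1, *St8sia2* and *St8sia4*, were at 1.75 CPM or less in every library.

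**Figure D5:**
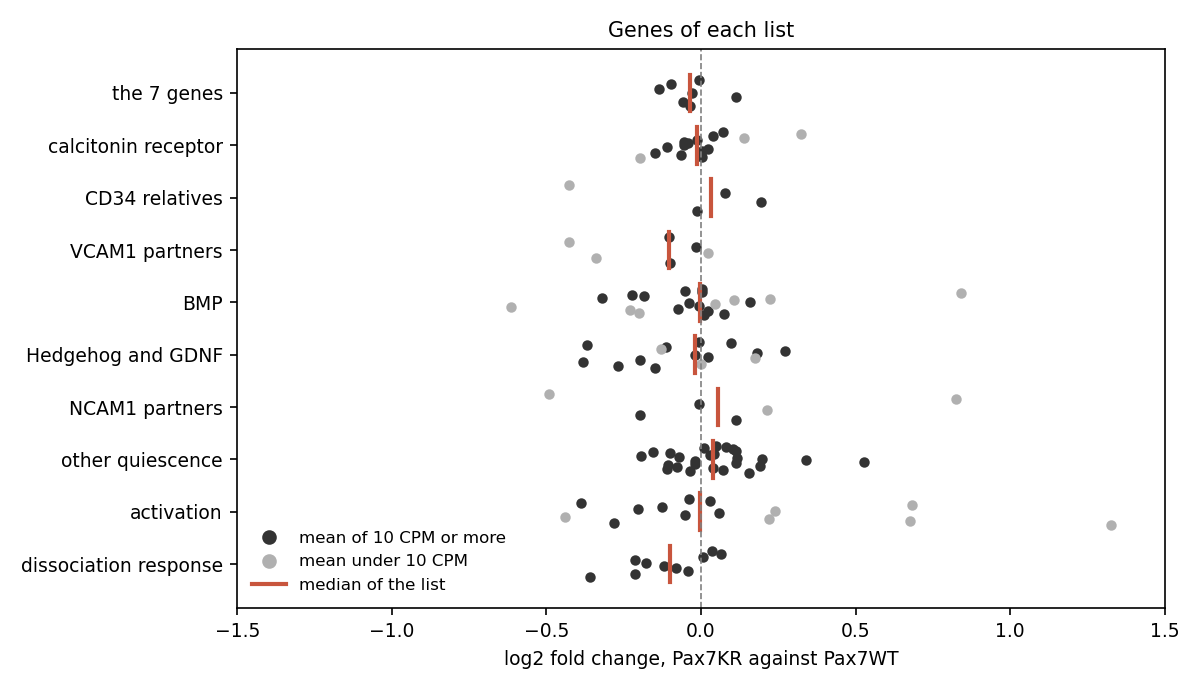
Log2 fold change of *Pax7KR* against *Pax7WT* for the tested genes of each list, dark for a mean of 10 CPM or more and grey below it, with the median of the list in red. The medians lie between -0.10 (VCAM1 partners and dissociation response) and 0.05 (NCAM1 partners), and the values far from 0 are mostly of weakly expressed genes.

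The members were set beside other genes of quiescence and of activation. Of 26 further quiescence genes, 16 were higher and 10 lower (median 0.04). An unadjusted p under 0.05 in edgeR was found for 2 of the 26, against 4.68% of all genes tested. *Foxo3* was at 133, 137 and 159 CPM in *Pax7WT* and at 233, 235 and 151 CPM in *Pax7KR* cells (log2 fold change 0.53, SE 0.20, unadjusted p = 0.0456), with *Pax7KR* replicate 3 among the *Pax7WT* values. *Rbpj*, the transcription factor of the Notch pathway, had separate groups, with 222, 212 and 209.6 CPM in *Pax7WT* and 190.2, 198 and 189 CPM in *Pax7KR* cells (log2 fold change -0.16, SE 0.06, unadjusted p = 0.0178). Of the 26 genes, 2 had separate groups with *Pax7KR* below *Pax7WT* and 1 with it above, against 5.19% and 5.14% of all genes tested. The receptor gene *Met* had a log2 fold change of -0.19 (SE 0.09, unadjusted p = 0.0586).

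Of 14 genes of activation and the cell cycle, 7 were higher and 7 lower (median -0.0044). In edgeR 2 of the 14 had an unadjusted p under 0.05, against 4.68% of all genes tested. *Myc* had a log2 fold change of -0.20 (SE 0.07, unadjusted p = 0.0148), *Ccnd1*, for cyclin D1, one of -0.28 (SE 0.12, unadjusted p = 0.0439) and *Odc1* one of -0.39 (SE 0.16, unadjusted p = 0.0559). The groups overlapped for all 3, and the adjusted p was 0.992 for each of these genes of quiescence and activation in edgeR.

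Genes of the response to tissue dissociation, which changes the RNA of satellite cells while they are isolated, summed to 26324 to 42986 CPM in *Pax7WT* and 32826 to 36833 CPM in *Pax7KR* libraries. Of these 10 genes 3 were higher and 7 lower (median -0.10). *Dusp1* had a log2 fold change of -0.21 (SE 0.15), and the heat shock genes *Hspa1a* and *Hspa1b* had -0.18 (SE 0.14) and -0.21 (SE 0.16). The lowest sum was that of *Pax7WT* replicate 2. *Fos* was at 3483 CPM there, against 6729 and 6606 CPM in the other *Pax7WT* libraries, whereas *Hspa1a* and *Hspa1b* were not lowest there. Without that library the log2 fold changes were -0.21 for *Gas1*, -0.12 for *Cd34*, -0.11 for *Calcr* and -0.10 for *Chrdl2*. They were -0.08 for *Ncam1*, 0.01 for *Vcam1* and 0.06 for *Chodl*.

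Markers of other cells were summed in each library, since *Vcam1*, *Cd34* and *Ncam1* are also made by vascular, mesenchymal or glial cells. The 8 endothelial markers summed to 82.3 to 151 CPM in *Pax7WT* and 95.7 to 181 CPM in *Pax7KR* cells, with 7 of 8 higher (median log2 fold change 0.39). Smooth muscle and pericyte markers summed to 301 to 391 and 279.9 to 356 CPM, with 7 of 7 lower (median -0.18), and Schwann cell markers to 74.7 to 104 and 59.1 to 89.9 CPM, with 4 of 6 lower (median -0.13). Fibro-adipogenic markers summed to 1931 to 2080 and 1959 to 2050 CPM, nearly all of it *Col3a1* and *Dpt*, while the defining *Pdgfra* was at 3.81 CPM or less. Tenocyte markers summed to 24.9 to 50.3 and 30.4 to 33.7 CPM with 3 of 4 lower, immune markers to 14.9 to 16.3 and 12.9 to 16.7 CPM with 5 of 7 higher and *Cd3e* without a read, and myofibre markers to 45.7 to 53.3 and 37.7 to 53.0 CPM with 5 of 7 lower. The globin genes of red cells summed to 187.5 to 369 and 324 to 547 CPM, with 4 of 4 higher. None of these markers passed the adjusted cut-off, and their part in the levels of the 7 genes was not tested.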

How the data were processed

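RNA was sequenced from sorted satellite cells of 3 *Pax7WT* and 3 *Pax7KR* samples, grouped by their labels, with 15 ng of RNA per library. The authors quantified reads with salmon (version 1.3.0, per the labels) against GENCODE transcripts of GRCm38 and deposited estimated counts, TPM and effective lengths per transcript. A deposited table of the authors' own comparison (log2 fold changes and p-values) was not used. Transcripts were matched to genes of an earlier GENCODE release, 139791 of 140992, and the unmatched ones held 0.606% of the reads and were left out. Estimated counts were summed per gene and rounded. After a filter of at least 5 reads in at least 2 libraries, genes were compared in edgeR (version 4.0.16; TMM, robust quasi-likelihood, genotype alone), with Benjamini-Hochberg adjustment over all 17152 genes and a cut-off of 0.1, the filter and cut-off of the study. CPM use TMM library sizes. Intervals are 95%. DESeq2 (version 1.42.0), other normalizations, filters and length offsets, a replicate block and leaving out each library were alternatives. Shares of transcripts used exact permutation tests in scipy (version 1.17.1). No 2 libraries agreed within sampling noise (chi-square per gene 11.0 to 25.1). The code was tested on simulated data. The members and lists were chosen with earlier results of these data known. Beside the members, *Pax7* and the genes of the gate, the text names from each list of partners, quiescence, activation and dissociation genes up to 3 genes with the smallest unadjusted p, and 2 genes most like each member in log2(CPM + 1); other names were chosen after their values were seen, and 2 list genes are not reported here.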

Additional observations from a re-analysis of the deposited data

How the results depend on the processing

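None of the 7 genes passed the adjusted cut-off, or had an unadjusted p under 0.05, in any of 13 other fits, and their smallest adjusted p was 0.829. Over all genes, DESeq2 called 30 genes, DESeq2 with transcript length 45 and edgeR without a filter 157 of 24068, against 0 in edgeR with the filter. RLE normalization, at least 10 reads in every library and edgeR with transcript length left this count at 0, and leaving out each library gave 1 to 32, the highest without *Pax7KR* replicate 3. The log2 fold change of *Vcam1* turned to 0.004449 in edgeR and 0.004988 in DESeq2 with transcript length. With a library left out, log2 fold changes ran from -0.1091 to 0.03026 for *Calcr*, -0.1216 to 0.009936 for *Cd34*, -0.06567 to 0.05215 for *Vcam1*, 0.06 to 0.19 for *Chodl*, -0.1191 to 0.06507 for *Chrdl2*, -0.25 to -0.01 for *Gas1* and -0.12 to -0.07 for *Ncam1*. Over these fits, the number of the 7 lower in *Pax7KR* ranged from 3 (without *Pax7WT* replicate 1) to 6. By mean TPM, which was not one of the fits and is not scaled to TMM library sizes, only *Gas1* and *Ncam1* were lower. The number of the 12 transcripts with separate groups was 0 with shares of TPM and ranged from 0 to 2 with a library left out, with 2 without *Pax7KR* replicate 2, 2 without *Pax7KR* replicate 3 and 1 without *Pax7WT* replicate 1. The cause of these changes was not tested.

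Samples share replicate numbers, but same-numbered samples did not deviate together (correlations 0.00, 0.04 and -0.06). Samples of unlike number had correlations from -0.08 to 0.08. The deviations are from means of 3 samples per genotype, so that these values do not settle whether the numbers pair the samples. With the replicate number as a block, edgeR called 13 genes, 0 of the 7 among them.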
